A study of Mus musculus with 69 samples.

Results

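The quantity described here is the difference between the effects of inhaled and injected cyanide on the mouse heart at 4 h, that is, HCN minus air from which KCN minus saline was taken away. It was computed for 26773 of 45141 probe sets, those bright enough to test, from 14 of the 69 arrays of the series, with the spread estimated over all 69. Hearts of adult male CD-1 mice, not anaesthetised and weighing 20 to 35 g, were profiled on Affymetrix expression arrays, and no genotype other than the stock is given. The 4 groups taken at 4 h were hydrogen cyanide (HCN) breathed nose-only at 327 ppm (4 arrays), air as the control of inhalation (4 arrays), potassium cyanide (KCN) injected under the skin at 8 mg/kg (3 arrays) and saline injected in matched volume (3 arrays). Each array was taken as 1 mouse, and the p-values measure only the spread between these samples, which the labels do not describe further. Because the routes differ in dose, vehicle and handling, the route and these cannot be told apart, and each cyanide group was set only against the control of its own route.

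Cyanide binds cytochrome c oxidase, which hands electrons to oxygen at the end of the respiratory chain, and so stops cells from using oxygen. The heart draws nearly all of its energy from that chain. Severe stress of the whole animal also releases glucocorticoids from the adrenal gland, which act on the heart through a nuclear receptor that switches on genes such as Zbtb16, Fkbp5 and Per1, while the NF-kB pathway switches on chemokines and its own inhibitor, Nfkbia.

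The difference between the routes passed the test, limma's moderated test with a Benjamini-Hochberg adjusted p under 0.05, for 501 probe sets, 1.87% of those tested. Of these, 173 probe sets (0.646%) for 133 genes lay higher after inhalation relative to injection, and 328 (1.23%) for 222 genes lay lower. In the authors' scale of log2 signal, 207 of the 501 differences were at least 2-fold and 447 at least 1.5-fold. The HCN effect alone passed for 279 of the 501, the KCN effect alone for 100, both for 7 and neither for 115. The 2 effects had opposite signs for 443 probe sets (88.4%), a share that choosing probe sets on their difference favours. For comparison, HCN against air passed for 1967 probe sets (7.35%) and KCN against saline for 605 (2.26%). The genes that passed with a positive difference included targets of the glucocorticoid receptor and inflammatory genes, and those of lowest p with a negative difference included Tppp, Zfp521, Ormdl3, Osr1 and Id4.

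**Figure D1:**
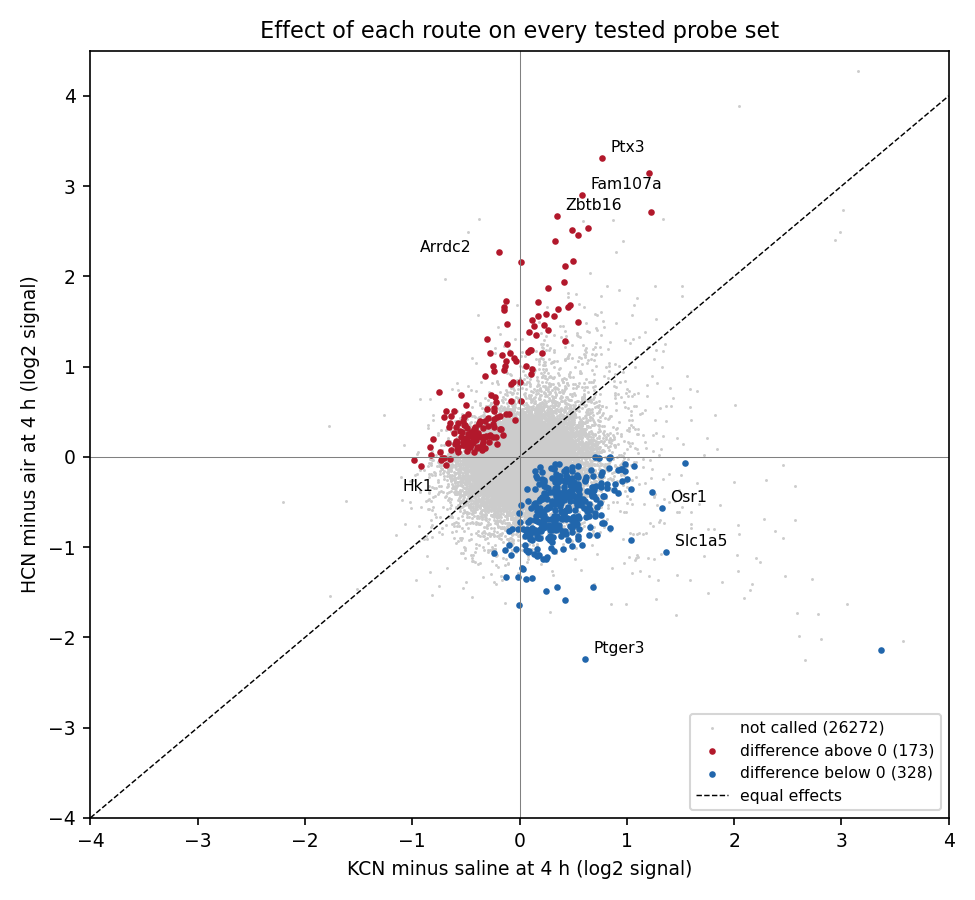
The effect of inhaled HCN over air (vertical axis) is plotted against that of injected KCN over saline (horizontal axis), both in log2 signal at 4 h, with 1 point for each tested probe set. The 173 probe sets with a positive difference (red) lie above the dashed line of equal effects, the 328 with a negative difference (blue) lie below it, and 9 probe sets fall outside the axes.

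The number of probe sets that passed depended on single arrays and on how much the other times lent to the estimate of spread. It was 109 without KCN replicate 1, 147 without saline replicate 2, 259 without air replicate 2, 271 without KCN replicate 3, 303 without saline replicate 1, 328 without HCN replicate 4 and 765 without saline replicate 3. With the spread estimated from the 14 arrays at 4 h alone it was 12, of which 10 were among the 501, and of the 43 called genes named in the text 37 lost their call. Whichever array was left out, 56 probe sets passed. Quantile normalization over all arrays gave 425 calls and turned the balance, with 58.1% of them higher after inhalation, against 34.5% of the 501; 338 calls were shared.

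Transcripts known from airway and fat differed between the arrays. The airway secretory gene Scgb1a1 read 12.77, 2.75, 12.03 and 3.26 in HCN hearts, against 12.81, 12.85, 9.76 and 10.94 in air hearts. It read 9.69, 12.07 and 10.95 in KCN hearts, against 2.88, 3.22 and 2.89 in saline hearts. All saline hearts and 2 of the HCN hearts were thus low, and all air and KCN hearts were high, although the arms appear to have been normalized apart; the difference between the routes was -11.8 ± 3.71 (SE) and did not pass (adjusted p = 0.0763), although it passed without HCN replicate 1 (-13.49, adjusted p = 0.0458). With the airway level, to which Scgb1a1 itself contributes, as a covariate it was -0.29. None of the 11 tested airway genes passed, all had negative differences, and the median was -4.83. The summed signal of the 11 airway genes, in log2, ran from 6.84 to 14.71 in HCN hearts, 11.74 to 14.93 in air hearts, 11.34 to 14.18 in KCN hearts and 6.55 to 6.79 in saline hearts. Genes of fat moved with them: none of 8 passed, all 8 differences were negative with a median of -1.21, and the summed signal ran from 13.07 to 13.87 in HCN hearts, 13.58 to 13.78 in air hearts, 12.85 to 13.23 in KCN hearts and 12.59 to 12.67 in saline hearts. With the airway level as a covariate 143 probe sets passed, 133 of them among the 501, and with the fat level 321, of which 264 were among them. Ventricular cardiomyocyte markers, by contrast, had a median difference of 0.04, and 0 of 7 passed. The log2 ratio of 3' to 5' actin control probe sets, a measure of RNA quality, was 0.35 to 0.45 in HCN hearts, 0.37 to 0.46 in air hearts, 0.57 to 0.62 in KCN hearts and 0.6 to 1.2 in saline hearts, and with it as a covariate 746 probe sets passed. The part of these transcripts and of RNA quality in the differences below was not tested beyond these fits. Among genes named below, HCN replicates 1 and 3, the pair high in airway transcripts, often read on the same side of replicates 2 and 4. They read above them in Arrdc2, Fam107a, Nfkbia, Sphk1, Id4 and Osr1, and below them in Ccl2, Ccl7, Kcnj8 and Arhgap18. Zbtb16, Gfod1 and Socs3 followed neither order.

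**Figure D2:**
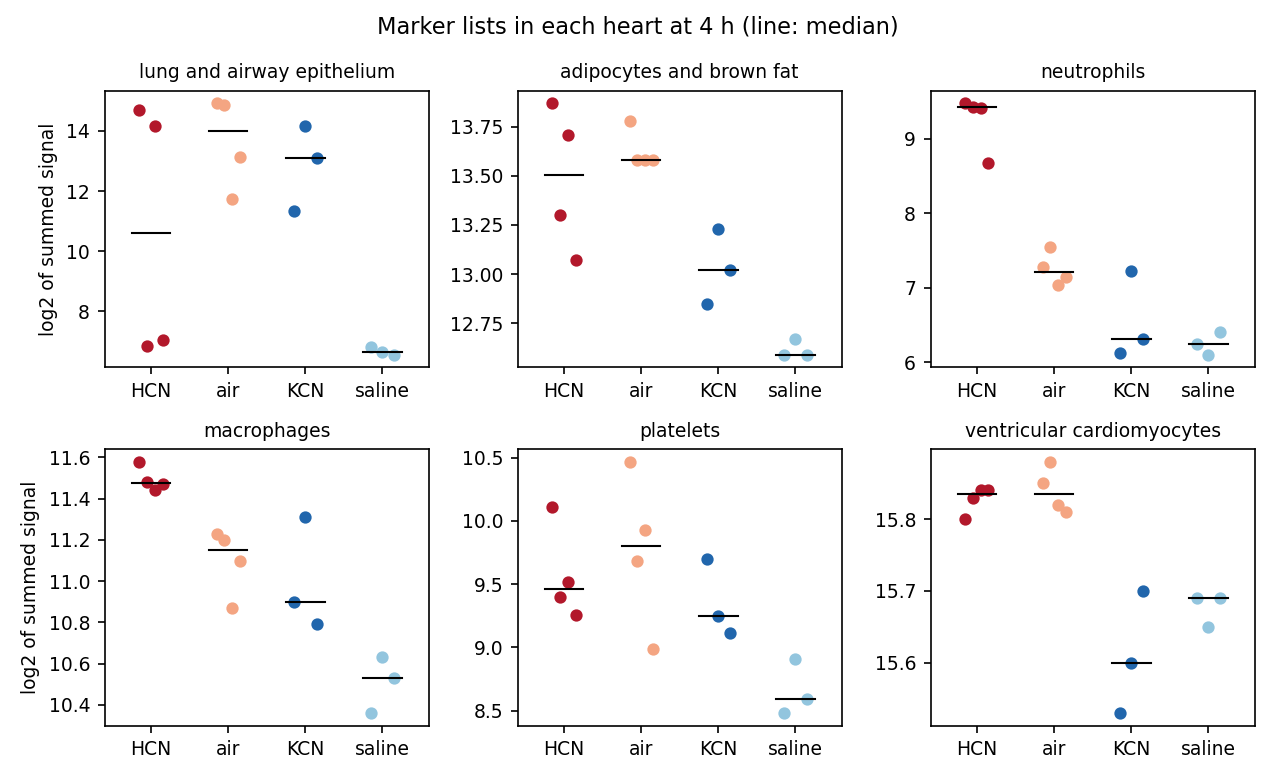
Points are arrays at 4 h in the order HCN, air, KCN and saline, and the vertical axis is the log2 of the summed signal of each marker list, with a line at the group median. Airway transcripts lay at 6.84 and 7.05 in 2 HCN hearts, between 6.55 and 6.79 in all 3 saline hearts and above 11 in the other 9 hearts, while neutrophil transcripts in the 4 HCN hearts lay above those in the 4 air hearts.

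Of 22 tested genes that the glucocorticoid receptor is known to switch on, 6 passed and 16 did not. The 6 that passed, all with positive differences, were Zbtb16, Fam107a, Arrdc2, Nfkbia, Cebpd and Klf15. Over the list 21 differences were positive and the median was 0.84, beside -0.05 over the 12436 genes tested, of which 102 passed with a positive and 165 with a negative difference. The list was chosen with earlier results of these data known, so these counts are a description and no test of the list. Zbtb16, a zinc finger transcription factor, read 9.06, 9.2, 9.47 and 9.15 in HCN hearts, against 6.01, 7.15, 6.47 and 6.59 in air hearts. It read 6.93, 8.37 and 6.65 in KCN hearts, against 6.81, 7.06 and 7.04 in saline hearts. All HCN hearts lay above the air hearts, and KCN replicate 2 lay above the other injected hearts, which overlapped. The difference between the routes was 2.32 ± 0.48 in log2 (SE; adjusted p = 0.00745), and its other probe set, at 1.91, also passed.

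Fam107a, a stress-induced actin-binding protein, read 8.35, 7.4, 8.31 and 7.4 in HCN hearts, against 5.43, 4.83, 4.57 and 5.02 in air hearts. It read 4.61, 7.02 and 4.67 in KCN hearts, against 5.1, 4.8 and 4.67 in saline hearts. All HCN hearts lay above the air hearts, KCN replicate 2 again stood above the other injected hearts, and the difference was 2.32 ± 0.5 (SE; adjusted p = 0.0102). Its other 2 probe sets gave 1.94 and 2.03 and passed. Without KCN replicate 1 the difference of Fam107a was 1.91 and did not pass (adjusted p = 0.0608). Nfkbia, which encodes the inhibitor that holds NF-kB in the cytoplasm and is a target of NF-kB and of glucocorticoids, read 10.24, 9.94, 10.39 and 9.94 in HCN hearts, against 9.38, 9, 8.86 and 8.64 in air hearts. It read 8.31, 8.37 and 8.33 in KCN hearts, against 8.08, 8.08 and 8.59 in saline hearts. The HCN hearts lay above the air hearts, and KCN and saline hearts overlapped; the difference was 1.08 ± 0.23 (SE; adjusted p = 0.00879).

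Arrdc2, an arrestin domain protein, differed by 2.46 ± 0.66 (adjusted p = 0.0358), with HCN hearts in 2 pairs, at 6.79 and 7.08 and at 4.92 and 4.87. The higher pair, replicates 1 and 3, was high in airway transcripts, and the lower pair, replicates 2 and 4, was low in them. Means of Arrdc2 in air (3.65), KCN (3.54) and saline hearts (3.73) lay near the limit under which probe sets were left out. A stricter brightness filter removed it, so the size of its difference is uncertain. Cebpd, which regulates acute phase genes, differed by 1.24 ± 0.33 (adjusted p = 0.0378), and Klf15, a regulator of cardiac amino acid and lipid metabolism, by 1.09 ± 0.3 (adjusted p = 0.0418); both were named after their values were seen. For these 3 genes the HCN hearts did not overlap the air hearts and the KCN hearts overlapped the saline hearts. Each of the 3 lost its call when any 1 of 9 of the 14 arrays was left out, with differences that ran from 2.07 to 2.81 for Arrdc2, 1.05 to 1.61 for Cebpd and 0.88 to 1.41 for Klf15. Of the 6 genes called, 2 passed without KCN replicate 1, and 3 passed without HCN replicate 1, HCN replicate 3, air replicate 4, KCN replicate 3, saline replicate 1 or saline replicate 3. With the airway level as a covariate 3 of the 6 passed and the 6 differences ran from 1.06 to 2.66, with the fat level 4 passed at 1.01 to 2.68, and with the spread taken from the 14 arrays alone none passed at the same 1.08 to 2.46. With the airway level in the 14 arrays alone 3 passed, Fam107a, Arrdc2 and Nfkbia, and the 6 differences ran from 1.59 to 4.97. Zbtb16 and Nfkbia passed whichever array was left out.

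Other known targets did not pass, among them Dusp1 at -0.01, Mt1 at 0.17, Tsc22d3 at 0.22 and Fkbp5 at 0.67 (adjusted p = 0.465). The HCN and KCN effects of Fkbp5 were 1.76 and 1.09. Ddit4, an inhibitor of mTORC1 signalling, differed by 1.28 ± 0.41 (adjusted p = 0.0829), the clock gene Per1 by 1.03 ± 0.6 (adjusted p = 0.399) and Pdk4, the kinase that turns off pyruvate dehydrogenase, by 0.88 ± 0.51 (adjusted p = 0.397). Ddit4 did pass without HCN replicate 2 (1.55, adjusted p = 0.0359) and with all controls of a route pooled (1.69, adjusted p = 0.0014). The KCN effects behind these differences were -0.1 for Ddit4, 0.22 for Per1 and 0.7 for Pdk4.

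Promoter windows are shown for a pair of the called glucocorticoid targets, since several genes of this list passed with the same sign. They are RefSeq sequences of build GRCm38.p6, 5' to 3', from 250 bases before to 50 after the start of transcription, searched on both strands. Capitals mark CACGTG, the E-box, in Klf15 (chr6:90462326-90462625, plus strand) and TGTTCT, the core hexamer of the glucocorticoid response element, in Fam107a (chr14:8309730-8310029, minus strand).
Klf15: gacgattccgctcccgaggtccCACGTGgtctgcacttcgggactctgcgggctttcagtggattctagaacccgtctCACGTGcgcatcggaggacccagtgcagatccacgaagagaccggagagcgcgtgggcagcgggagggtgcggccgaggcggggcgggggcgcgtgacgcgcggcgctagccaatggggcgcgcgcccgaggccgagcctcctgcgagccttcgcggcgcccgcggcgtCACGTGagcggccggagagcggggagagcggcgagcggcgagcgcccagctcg
Fam107a: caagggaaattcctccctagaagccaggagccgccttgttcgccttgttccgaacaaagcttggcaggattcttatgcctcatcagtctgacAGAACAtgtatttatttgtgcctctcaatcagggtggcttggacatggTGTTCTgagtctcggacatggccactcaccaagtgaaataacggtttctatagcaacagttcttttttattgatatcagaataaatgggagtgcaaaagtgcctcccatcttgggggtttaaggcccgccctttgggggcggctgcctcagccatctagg
The E-box occurred 3 times in the Klf15 window and in 7.15% of all 32851 windows of this length, and TGTTCT occurred 2 times in the Fam107a window shown and in 19% of all windows. Fam107a had 3 windows. Another that nearly coincides with the one shown (chr14:8309728-8310027) also held 2 matches, and that at chr14:8317558-8317857 held none. Among the 6 called genes of the list, 4 had windows, and TGTTCT was found in 1 of the 4, Fam107a. Counted by window, it was found in 2 of 6. Windows of Nfkbia and Arrdc2 held none of the 6 motifs searched, which were these 2, TGANTCA (AP-1), TGACG (the CRE core), ACGTG (the hypoxia core, which lies inside every E-box) and AGGTCA (the nuclear receptor core). These matches are descriptions of the letters.

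**Figure D3:**
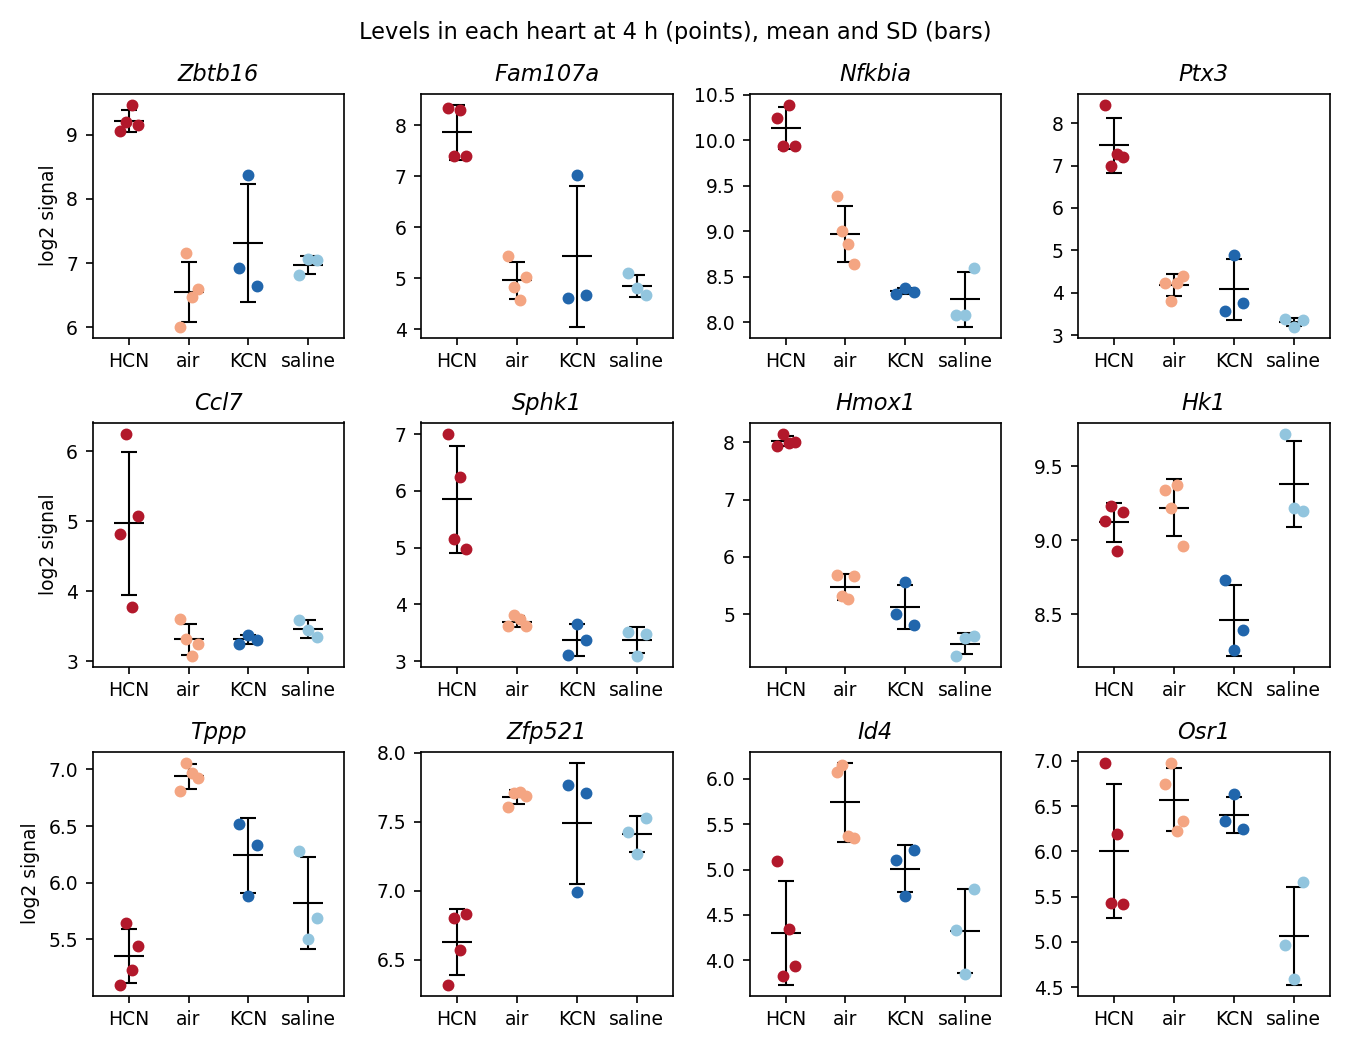
Each panel gives log2 signal of a gene in the 14 hearts at 4 h (points), with the mean and SD of the 4 HCN, 4 air, 3 KCN and 3 saline hearts; vertical axes differ between panels and do not start at 0. HCN hearts lie apart from air hearts for Zbtb16, Fam107a, Nfkbia, Ptx3, Ccl7, Sphk1 and Hmox1 (above) and for Tppp, Zfp521 and Id4 (below). For Hk1 and Osr1 only KCN and saline hearts lie apart, and for Ptx3 and Hmox1 KCN hearts also lie above saline hearts.

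Inflammatory genes formed the other list with several calls. Of 25 tested, 6 passed, all with positive differences, and the median over the list was 0.57. This list too was chosen with earlier results of these data known. Ptx3, a secreted pattern recognition protein of the pentraxin family, read 8.44, 6.99, 7.28 and 7.21 in HCN hearts, against 4.22, 3.8, 4.24 and 4.4 in air hearts. It read 3.57, 4.9 and 3.76 in KCN hearts, against 3.37, 3.2 and 3.36 in saline hearts. The lowest HCN heart lay well above the highest air heart, and the KCN hearts all lay above the saline hearts by a smaller step. The difference was 2.55 ± 0.53 (SE; adjusted p = 0.00745), the largest positive one among the called genes named. The mean of saline hearts (3.31) lay just above the limit under which probe sets were left out, so the size of this difference is uncertain.

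Ccl7, a chemokine that draws monocytes, read 4.81, 6.25, 3.77 and 5.07 in HCN hearts, against 3.6, 3.31, 3.08 and 3.25 in air hearts. It read 3.25, 3.38 and 3.3 in KCN hearts, against 3.59, 3.44 and 3.34 in saline hearts. HCN hearts varied widely, with the lowest just above the air hearts, and KCN and saline hearts overlapped; the difference was 1.81 ± 0.44 (SE; adjusted p = 0.0205). It did not pass without HCN replicate 2 (1.38), KCN replicate 1 (1.78) or saline replicate 2 (1.82). The related chemokine Ccl2 differed by 1.86 ± 0.51 (adjusted p = 0.0418), Socs3, a feedback inhibitor of cytokine signalling, by 1.76 ± 0.46 (adjusted p = 0.0332) and Selp, the adhesion protein P-selectin of platelets and endothelium, by 1.15 ± 0.29 (adjusted p = 0.0266), with another probe set of Selp at 0.44 that did not pass. The call was lost when a given array was left out, which held for 11 arrays in Ccl2, 7 for Socs3 and 6 for Selp, with differences over all arrays left out in turn from 1.44 to 2.14, 1.54 to 2.09 and 0.92 to 1.3. Of the 6 genes, 2 passed without HCN replicate 2, KCN replicate 1 or saline replicate 2, and 3 without air replicate 3 or KCN replicate 3. With the airway level as a covariate 2 passed, Nfkbia and Ptx3, and the 6 differences ran from 1.06 to 2.36, with the fat level 3 passed at 1.01 to 2.37, and with the 14 arrays alone none passed at the same 1.08 to 2.55. The differences of both chemokines were smaller with the airway level, at 1.37 for Ccl2 and 1.39 for Ccl7. They were smaller still, at 0.26 and 0.43, with the airway level in the 14 arrays alone. Means of Ccl7 in air (3.31), KCN (3.31) and saline hearts (3.46) lay just above the limit under which probe sets were left out. So did those of Socs3 in KCN (3.33) and saline hearts (3.47). The sizes of the KCN effects and differences of Ccl7 and Socs3 are thus uncertain. With a stricter brightness filter only 2 of the 6 genes, Nfkbia and Ptx3, were tested, and both passed.

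The summed signal of the neutrophil markers lay higher in all HCN hearts than in any air heart. It was carried by S100a8 and S100a9, the calprotectin subunits, with HCN effects of 2.61 and 2.62, while the HCN effects of the other 6 markers ran from -0.2 for Camp and -0.03 for Mmp9 to 0.81 for Mmp8. The summed signal, in log2, was 8.67 to 9.48 in HCN hearts, 7.04 to 7.55 in air hearts, 6.12 to 7.23 in KCN hearts and 6.1 to 6.41 in saline hearts. Of 8 tested, 0 passed for the difference between the routes, 6 differences were positive and the median was 0.52. Macrophage markers, with summed signals of 11.44 to 11.58 in HCN hearts, 10.87 to 11.23 in air hearts, 10.79 to 11.31 in KCN hearts and 10.36 to 10.63 in saline hearts, had 0 of 10 called and a median of -0.26. Their part in the inflammatory genes was not tested. In RNA of whole hearts, more cells of a type and more RNA per cell cannot be told apart.

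The Selp window (chr1:164115014-164115313, plus strand) is given because it held matches to both the AP-1 motif TGANTCA and the nuclear receptor core AGGTCA, marked in capitals on either strand.
Selp: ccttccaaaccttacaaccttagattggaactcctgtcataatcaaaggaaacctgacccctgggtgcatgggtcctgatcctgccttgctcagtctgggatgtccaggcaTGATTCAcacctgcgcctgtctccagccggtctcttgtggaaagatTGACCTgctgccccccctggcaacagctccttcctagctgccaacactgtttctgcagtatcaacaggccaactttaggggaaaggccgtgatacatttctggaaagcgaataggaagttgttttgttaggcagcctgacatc
TGANTCA was found in 7.81% and AGGTCA in 16.3% of all windows. Of the 6 called inflammatory genes 4 had windows, and those of Ptx3, Socs3 and Nfkbia held none of the motifs searched.

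Hmox1, which breaks down haem and is switched on by NRF2 and by hypoxia, read 7.94, 8.15, 7.99 and 8 in HCN hearts, against 5.68, 5.32, 5.26 and 5.66 in air hearts. It read 5, 5.56 and 4.82 in KCN hearts, against 4.28, 4.58 and 4.62 in saline hearts. The HCN hearts lay above the air hearts, and the KCN hearts above the saline hearts by a smaller step that did not pass on its own; the difference was 1.9 ± 0.46 (SE; adjusted p = 0.02). It did not pass without KCN replicate 1 (1.84), KCN replicate 3 (1.75) or saline replicate 2 (1.86), nor with the airway level as a covariate (1.7). Hmox1 was the sole call among 17 NRF2 targets (median -0.08). Among 21 HIF targets (median 0.02), Hmox1 passed and Vegfa, the vascular growth factor, passed with the opposite sign at -0.85 ± 0.24 (adjusted p = 0.0459), its other probe set giving -0.76 without passing; Vegfa lost its call when any 1 of 10 arrays was left out (-1.01 to -0.71), under both quantile normalizations and under median centring, and with all controls of a route pooled it was -0.58 and did not pass.

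Sphk1, which makes the lipid signal sphingosine 1-phosphate, read 7.01, 5.16, 6.25 and 4.98 in HCN hearts, against 3.62, 3.81, 3.74 and 3.62 in air hearts. It read 3.11, 3.66 and 3.37 in KCN hearts, against 3.51, 3.1 and 3.48 in saline hearts. HCN hearts lay above all air hearts, and KCN and saline hearts overlapped. Within the HCN hearts, replicates 1 and 3, high in airway transcripts, read higher than replicates 2 and 4, low in them. The difference was 2.14 ± 0.48 (SE; adjusted p = 0.0149), and the other probe set of Sphk1 gave 0.31 and did not pass. Without KCN replicate 1 the adjusted p was 0.0509 (2.01). The means of KCN hearts (3.38) and saline hearts (3.37) lay just above the limit under which probe sets were left out. The sizes of the KCN effect and of the difference are thus uncertain for Sphk1. Of 28 immediate early genes 1 passed, the growth regulator Myc, at 1.19 ± 0.32 (adjusted p = 0.0377), and it lost its call when any 1 of 10 arrays was left out (1.09 to 1.31). Atf3 and Nr4a3, transcription factors that both routes moved upward, did not pass: Atf3 differed by 1.84 ± 0.62 (adjusted p = 0.0979), from an HCN effect of 3.88 and a KCN effect of 2.04, and Nr4a3 by 1.13 ± 0.69 (adjusted p = 0.432), from effects of 4.28 and 3.15. Without KCN replicate 2 the difference of Atf3 was 2.61 and passed. Agt, which encodes angiotensinogen, behaved alike, with a difference of 1.3 ± 0.49 (adjusted p = 0.145) from an HCN effect of 2.64 and a KCN effect of 1.34, and likewise did not pass, except with all controls of a route pooled (1.85, adjusted p = 0.00356).

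Energy metabolism and cyanide detoxification showed few differences between the routes. None of 19 genes of cytochrome c oxidase, 47 of the other respiratory complexes and ATP synthase, 15 of the citric acid cycle and 23 of fatty acid oxidation passed, with medians from 0 to 0.08 and extremes of -0.45 and 1.21. Of 10 genes of cyanide and sulfide detoxification none passed; Tst, rhodanese, which turns cyanide into thiocyanate, differed by -0.63 ± 0.38 (adjusted p = 0.43), a sign that turned to 0.04 with the airway level as a covariate and to 0.32 with that covariate in the 14 arrays alone.

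The 16 tested genes of the glycolysis list included Pigq, which is not a glycolysis gene (-0.13, not called). Among the 16 genes 1 passed, Hk1, the hexokinase that starts glycolysis. It read 9.13, 9.23, 8.93 and 9.19 in HCN hearts, against 9.34, 9.22, 9.37 and 8.96 in air hearts, and 8.73, 8.26 and 8.39 in KCN hearts, against 9.72, 9.22 and 9.2 in saline hearts. The KCN hearts lay below the saline hearts while HCN and air overlapped; the difference was 0.82 ± 0.21 (SE; adjusted p = 0.0308), and its other probe set gave 0.12. The call was lost when any 1 of 7 arrays was left out (0.65 to 0.95) and with all controls of a route pooled (0.46). Uqcc2, an assembly factor of respiratory complex III outside the list, read 6.63, 6.77, 6.59 and 6.84 in HCN hearts, against 6.58, 6.36, 6.52 and 6.36 in air hearts. It read 5.77, 5.69 and 5.92 in KCN hearts, against 6.19, 6.39 and 6.23 in saline hearts. HCN hearts lay just above air hearts and KCN hearts below saline hearts; the difference was 0.73 ± 0.13 (SE; adjusted p = 0.00292), its other probe set (0.43) passed as well, and with all controls of a route pooled it was 0.33 and did not pass. Psmb3, the sole call among 29 proteasome genes, differed by 0.85 ± 0.16 (adjusted p = 0.00427), mostly through a KCN effect of -0.56; its other probe set gave 0.13, and pooled controls gave 0.26 with no call.

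**Figure D4:**
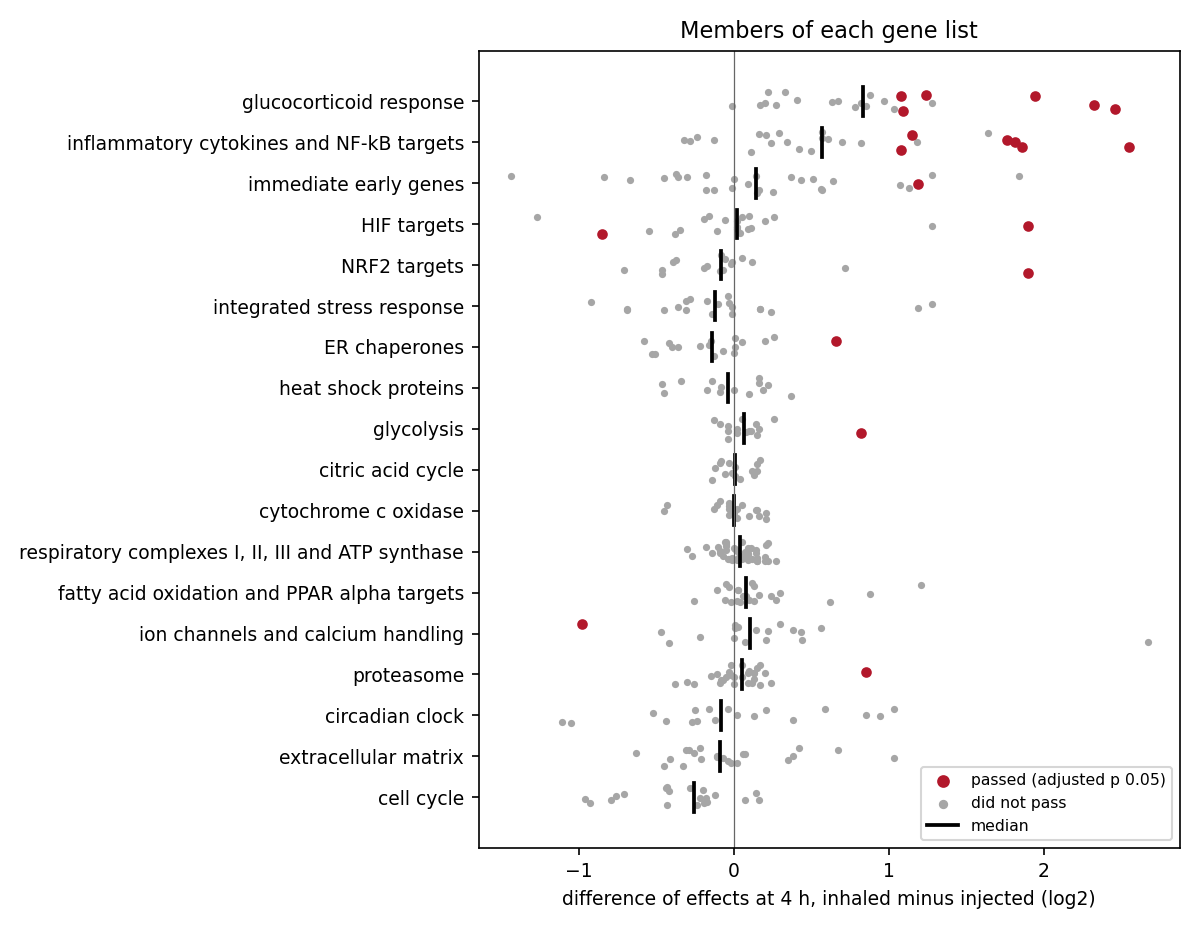
Each point is a gene at its difference of effects between the routes at 4 h (horizontal axis, log2, inhaled minus injected), 1 row for each list, with called genes in red and the median as a bar. The glucocorticoid and inflammatory lists have medians of 0.84 and 0.57 and 6 called genes each, and all other lists shown have medians between -0.26 and 0.14 and at most 2.

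The remaining stress lists held few or no calls. Among 18 endoplasmic reticulum chaperones Hspa5, the main chaperone BiP, passed at 0.66 ± 0.18 (adjusted p = 0.0388; its other probe set, at 0.3, did not) with a list median of -0.14, and it lost its call when any 1 of 9 arrays was left out (0.54 to 0.76) and with pooled controls (0.38). None of 20 genes of the integrated stress response passed, nor of 14 heat shock proteins, 18 interferon response genes, 15 genes of cardiac stress, 17 p53 targets, 22 matrix genes or 18 clock genes. Of 20 cell cycle genes none passed, 17 had negative differences and the median was -0.26. At an unadjusted p under 0.05, 4411 of all tested probe sets (16.5%) passed.

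The lower side was led by Tppp, which promotes the polymerization of tubulin and had the lowest p of all named genes. It read 5.1, 5.64, 5.23 and 5.44 in HCN hearts, against 6.81, 7.06, 6.97 and 6.92 in air hearts. It read 6.52, 5.88 and 6.33 in KCN hearts, against 6.28, 5.5 and 5.69 in saline hearts. HCN hearts lay below every air heart and KCN overlapped saline; the difference was -2.01 ± 0.28 (SE; adjusted p = 5.3e-05). Tppp was the sole one of the 43 called genes named in the text that passed under every alternative run, with values from -2.56 to -1.44.

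Several transcription regulators were among the genes of lowest p. Zfp521, a zinc finger protein of mesenchymal and blood precursors, read 6.32, 6.8, 6.57 and 6.83 in HCN hearts, against 7.61, 7.71, 7.72 and 7.69 in air hearts. It read 7.77, 6.99 and 7.71 in KCN hearts, against 7.43, 7.27 and 7.53 in saline hearts. HCN hearts lay below the air hearts, and KCN hearts overlapped saline hearts, with KCN replicate 2 below the rest at 6.99; the difference was -1.13 ± 0.18 (SE; adjusted p = 0.0011), and its other probe set gave -0.64 without passing. Dact1, a modulator of Wnt signalling, read 5.71, 6.1, 5.82 and 6.3 in HCN hearts, against 7.15, 7.2, 7.04 and 7.08 in air hearts. It read 6.87, 6.87 and 7.11 in KCN hearts, against 6.71, 6.32 and 7.16 in saline hearts. Again HCN hearts lay below the air hearts and KCN overlapped saline, for a difference of -1.35 ± 0.26 (SE; adjusted p = 0.0042).

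Id4, an inhibitor of basic helix-loop-helix factors, read 5.09, 3.83, 4.34 and 3.94 in HCN hearts, against 6.08, 6.15, 5.37 and 5.35 in air hearts. It read 5.1, 4.71 and 5.21 in KCN hearts, against 4.33, 3.85 and 4.78 in saline hearts. HCN hearts lay below air hearts, and the KCN hearts overlapped the saline hearts by a single saline value; the difference was -2.12 ± 0.42 (SE; adjusted p = 0.00437), and its other 2 probe sets gave -1.37 and -0.68, of which 1 passed. Id4 did not pass with the airway level as a covariate (-1.45). Osr1, a zinc finger factor of the embryonic heart and kidney, read 6.98, 5.43, 6.19 and 5.42 in HCN hearts, against 6.74, 6.98, 6.23 and 6.34 in air hearts. It read 6.33, 6.63 and 6.25 in KCN hearts, against 4.97, 4.59 and 5.66 in saline hearts. Here the routes differed mainly through KCN hearts, all of which lay above the saline hearts, while HCN and air overlapped; the difference was -1.9 ± 0.35 (SE; adjusted p = 0.0033). HCN replicates 1 and 3, high in airway transcripts, read higher than replicates 2 and 4, low in them. Osr1 kept its call with the airway level as a covariate over all arrays. With that covariate in the 14 arrays alone its difference was -0.43 and did not pass (adjusted p = 0.801).

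Dach1, a transcriptional corepressor with a part in coronary artery growth, differed by -1.46 ± 0.28 (adjusted p = 0.00431), with its other 2 probe sets at -0.87 and 0.08. Tcf21, which marks epicardium and fibroblasts, differed by -1.26 ± 0.32 (adjusted p = 0.0286), from an HCN effect of -1.23 and a KCN effect of 0.02. It was the single call among 8 fibroblast markers, whose median was -0.17, and it lost the call without air replicate 2 (-1.17), KCN replicate 1 (-1.18), KCN replicate 3 (-1.02), saline replicate 1 (-1.09) or saline replicate 2 (-1.25). Egfl7, a secreted factor of blood vessel walls, was the single call among 9 endothelial markers at -0.72 ± 0.19 (adjusted p = 0.035; median of the list -0.19), and was lost when any 1 of 9 arrays was left out (-0.86 to -0.63), under quantile normalization and with all controls of a route pooled (-0.36). Kcnj8, the pore subunit of a vascular ATP-sensitive potassium channel, was the single call among 18 ion channel and calcium handling genes and among 7 markers of smooth muscle and pericytes, at -0.98 ± 0.26 (adjusted p = 0.0362), and was lost when any 1 of 8 arrays was left out (-1.18 to -0.78) and with pooled controls (-0.58). Kcnj8 read 7.37, 8.53, 7.33 and 8.46 in HCN hearts, against 8.22, 8.92, 8.45 and 8.75 in air hearts. HCN replicates 2 and 4 thus lay within the range of the air hearts, and KCN hearts overlapped saline hearts.

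Genes of membrane lipids, transport and signalling completed the lower side. Ormdl3, which restrains the rate-limiting enzyme of sphingolipid synthesis, read 7.19, 6.88, 7.13 and 7.02 in HCN hearts, against 7.62, 7.69, 7.46 and 7.52 in air hearts. It read 6.84, 6.81 and 6.61 in KCN hearts, against 6.25, 6.05 and 6.02 in saline hearts. HCN hearts lay below air hearts and KCN hearts above saline hearts with no overlap in either route; the difference was -1.17 ± 0.2 (SE; adjusted p = 0.0016). It passed whichever array was left out, but with all controls of a route pooled it was -0.4 and did not pass.

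The window of Ormdl3 (chr11:98587196-98587495, minus strand) is shown as the one with the most matches, among the windows searched, to the CRE core, TGACG, in capitals on either strand.
Ormdl3: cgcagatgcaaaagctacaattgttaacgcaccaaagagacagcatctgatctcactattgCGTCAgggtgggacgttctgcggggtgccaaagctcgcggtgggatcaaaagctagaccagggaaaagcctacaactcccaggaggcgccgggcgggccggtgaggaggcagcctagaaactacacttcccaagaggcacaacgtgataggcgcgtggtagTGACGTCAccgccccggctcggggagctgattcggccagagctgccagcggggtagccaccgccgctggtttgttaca
The CRE core occurred 3 times, with 2 of these overlapping on opposite strands, and in 20.8% of all windows. It was found in windows of 4 of the 8 genes with windows among the 10 of lowest p on the lower side, and of 2 of the 9 on the higher side. Some genes have several windows. Counted by window, as the 20.8% is, it was found in 4 of 13 on the lower side and 2 of 11 on the higher side.

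Ptger3, the EP3 receptor for prostaglandin E2, read 3.78, 3, 3.42 and 2.7 in HCN hearts, against 5.42, 4.89, 6.07 and 5.46 in air hearts. It read 3.4, 3.28 and 3.62 in KCN hearts, against 3.01, 2.77 and 2.7 in saline hearts. HCN hearts lay below air hearts, and KCN hearts just above saline hearts. The means of HCN hearts (3.22) and saline hearts (2.83) lay below 3.226, the limit under which probe sets were left out, so that the size of the difference is uncertain. It was -2.84 ± 0.67 (SE; adjusted p = 0.018), and without KCN replicate 1 (-2.86) the adjusted p was 0.0508. Slc1a5, a carrier of glutamine and other neutral amino acids, differed by -2.43 ± 0.61 (adjusted p = 0.0264), from an HCN effect of -1.06 and a KCN effect of 1.37, neither of which passed alone, and was lost when any 1 of 6 arrays was left out (-2.7 to -2.18). Ptger3 (-1.74) and Slc1a5 (-1.86) did not pass with the airway level as a covariate.

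Arhgap18, which turns off RhoA, differed by -1.64 ± 0.36 (adjusted p = 0.0131) through an HCN effect of -1.65 and a KCN effect of -0.01, its other probe set (-1.48) passed too, and without KCN replicate 1 (-1.44) it did not. Senp7, which trims SUMO chains, differed by -1.73 ± 0.32 (adjusted p = 0.0042), with its other probe set at -0.84 and not called, and Ndrg3 by -1.31 ± 0.26 (adjusted p = 0.00437), with a further probe set of Ndrg3 at -1.36 that passed. Ndrg3 did not pass with all controls of a route pooled (-0.67). Gng12, a G protein gamma subunit, differed by -1.96 ± 0.47 (adjusted p = 0.02) in 1 probe set and by 0.06 in the other, so its probe sets disagree. It was lost without KCN replicate 1 (-2.02), saline replicate 1 (-1.77) or saline replicate 2 (-1.85).

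On the higher side the genes of lowest p outside the lists were of mixed function. Fmnl2, a formin that extends actin filaments, read 8.04, 8.18, 8.04 and 8.34 in HCN hearts, against 6.38, 6.71, 6.43 and 6.42 in air hearts. It read 7.2, 7.75 and 6.88 in KCN hearts, against 6.73, 6.98 and 6.77 in saline hearts. HCN hearts lay far above air hearts and KCN hearts overlapped saline hearts; the difference was 1.22 ± 0.22 (SE; adjusted p = 0.00292). Gfod1 read 7.24, 6.66, 7.36 and 7.3 in HCN hearts, against 4.67, 4.42, 4.96 and 4.91 in air hearts. It read 3.82, 4.96 and 3.56 in KCN hearts, against 3.9, 3.5 and 3.97 in saline hearts. The pattern was the same, for a difference of 2.07 ± 0.37 (SE; adjusted p = 0.00322), but its other 2 probe sets gave -0.12 and 0.03, so its probe sets disagree.

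Dpf3, a subunit of BAF chromatin remodelling complexes in heart and muscle, differed by 1.15 ± 0.2 (adjusted p = 0.00206), and its other probe set by 0.07. The HCN hearts of Dpf3 lay above the air hearts and the KCN hearts below the saline hearts. The mean of its KCN hearts (3.16) lay below 3.226, the brightness limit, so the size of its difference is uncertain. Dyrk1a, a kinase that acts on splicing and NFAT signalling, differed by 0.96 ± 0.18 (adjusted p = 0.0042) in 1 probe set and by -0.21 and 0.02 in the others. Sema7a, a membrane-anchored semaphorin, differed by 1.25 ± 0.24 (adjusted p = 0.00427) and Piezo1, a mechanically gated cation channel, by 1.11 ± 0.23 (adjusted p = 0.00684), both mostly through the HCN effect; the other probe set of Sema7a gave 0.37 and did not pass. Ank, which exports pyrophosphate, and Pitpnc1, a phosphatidylinositol transfer protein, differed by 0.64 ± 0.12 (adjusted p = 0.00363) and 1.19 ± 0.23 (adjusted p = 0.00427), more through KCN (-0.49 and -0.69) than through HCN (0.15 and 0.5). With all controls of a route pooled, the differences of Ank (0.27) and Pitpnc1 (0.45) did not pass. Pitpnc1 has 8 other probe sets, which gave 0.15 to 0.92, and 3 of them passed.

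The 4 h pattern was set beside the same difference in other mice at 1, 2 and 24 h. The difference between the routes passed for 53 probe sets at 1 h (0.198%), 1534 at 2 h (5.73%) and 5037 at 24 h (18.8%). Of the 501 probe sets, 1 also passed at 1 h, 44 at 2 h with 34 of the same sign, and 92 at 24 h with 44 of the same sign. Signs alone were shared by 252 of the 501 at 1 h, 308 at 2 h and 252 at 24 h. The test of the 4 h difference against the 1 h difference passed for 138 probe sets (0.515%), of which 32 were positive and 106 negative, and 70 were among the 501, with which they share the 4 h arrays.

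Zbtb16 and Fam107a were positive at 4 h and not at the earlier times. The difference between the routes for Zbtb16 was -1.05 at 1 h and -0.43 at 2 h, then 2.32 at 4 h and 0.08 by 24 h, and its 4 h value exceeded its 1 h value by 3.36 ± 0.65 (SE; adjusted p = 0.00512). For Fam107a it was -0.61 at 1 h and -0.51 at 2 h, then 2.32 at 4 h and 0.17 by 24 h, and the change over 1 h was 2.94 ± 0.68 (SE; adjusted p = 0.0235). Ptx3, in contrast, was positive at each early time, with 1.01 at 1 h and 2.15 at 2 h, then 2.55 at 4 h and 0.18 by 24 h, and its change over 1 h did not pass (adjusted p = 0.396). Nfkbia gave 0.37 at 1 h and 0.32 at 2 h, then 1.08 at 4 h and -0.61 by 24 h, and its change over 1 h did not pass either (adjusted p = 0.345). On the lower side, Dact1 gave 0.73 at 1 h and -0.54 at 2 h, then -1.35 at 4 h and 0.15 by 24 h, with a change over 1 h of -2.08 ± 0.35 (SE; adjusted p = 0.000809). Zfp521 gave 0.44 at 1 h and -0.32 at 2 h, then -1.13 at 4 h and 0.07 by 24 h, with a change of -1.57 ± 0.25 (SE; adjusted p = 0.000453), and Tppp gave 0.08 at 1 h and 0.2 at 2 h, then -2.01 at 4 h and 0.57 by 24 h, with a change of -2.09 ± 0.38 (SE; adjusted p = 0.00321). Id4 and Osr1 were negative at all 4 times, and their changes over 1 h did not pass (adjusted p = 0.0812 and 0.114).

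**Figure D5:**
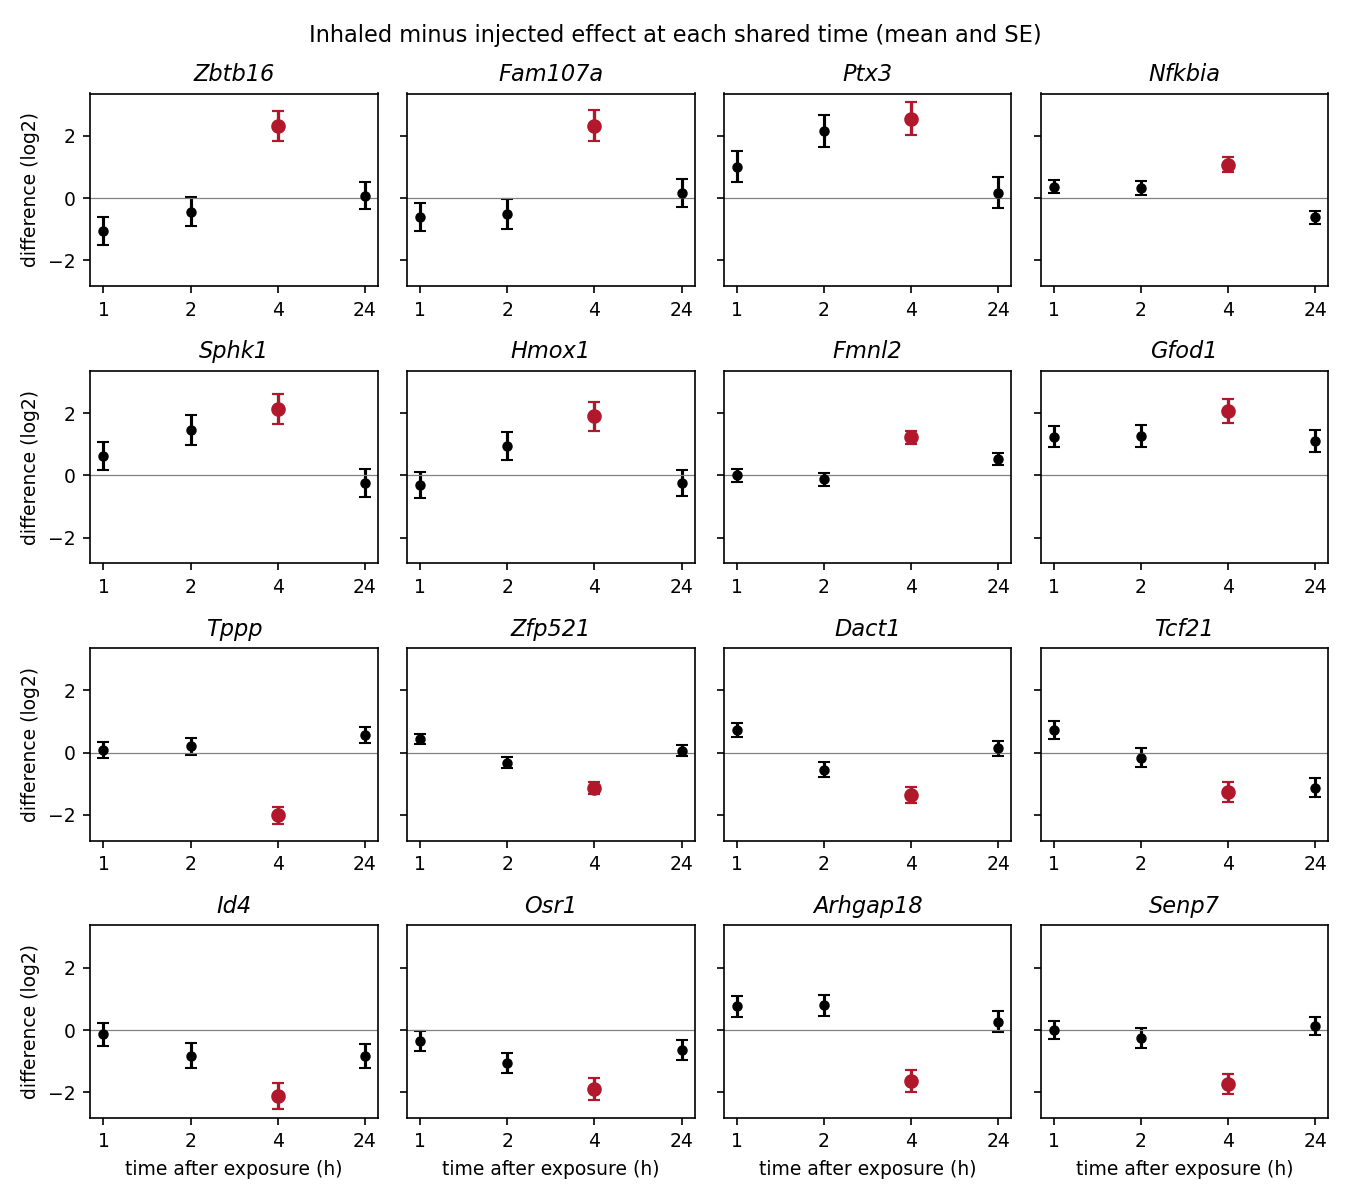
The vertical axis is the difference between the routes in log2 (points, with SE as bars) for 16 genes, and the horizontal axis lists the shared times of 1, 2, 4 and 24 h, with 4 h in red; times are evenly spaced and not to scale. Zbtb16 and Fam107a are at 2.32 at 4 h and below 0 at 1 h and 2 h, Tppp is at -2.01 at 4 h and above 0 at the other times, and Ptx3 is at 2.15 by 2 h.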

How the data were processed

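Total RNA of hearts (100 ng) was labelled with a 3' kit for Affymetrix arrays, per the labels. The log2 signals were summarised per probe set and normalized by the authors before they were deposited; the submitters' processing notes name MAS5, with no version or role. The distributions of the 37 injection and 32 inhalation arrays differ (median 95th percentiles 9.24 and 9.52), so levels were compared within a route and only the difference of effects between routes; array number limits the precision. No scan date or batch was given in the labels used here.

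Probe sets with a group mean above 3.226, the median of all group means, were tested, and 104 controls were left out. Of all probe sets 28898 carry 1 symbol, 551 several and 15588 none; probe sets without a single symbol were counted, not named. limma 3.58.1 in R 4.3.3 fitted 18 group means over 69 arrays with eBayes and trend (51 residual and 5.53 prior degrees of freedom), and p-values were two-sided and adjusted by Benjamini-Hochberg over all probe sets of a contrast. SE is limma's. The procedure was tested on simulated data. Arrays at 4 h correlated at 0.96 to 0.994.

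The named genes are, in each direction, the 10 largest and the 10 of lowest p with 1 probe set a gene (its lowest p), up to 4 members a pathway list, and a fixed set, of which the text names a part; list counts use the probe set of highest mean. Members and lists were chosen with earlier results of these data known. Deviations of same-numbered HCN and air arrays correlated at 0.318, -0.142, -0.108 and 0.238 (replicates 1 to 4) and those of KCN and saline arrays at -0.0151 to 0.0639, so the numbers were not taken as pairs.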

Additional observations from a re-analysis of the deposited data

Results flagged for a closer look

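The effects of the routes differed from each other at 4 h for 501 probe sets, and that difference differed from the one at 1 h for 138. Among the genes named, the 4 h difference lay above the 1 h difference for Zbtb16 (3.36), Fam107a (2.94), Fmnl2 (1.21) and Uqcc2 (0.82), in log2, and below it for Arhgap18 (-2.39), Tppp (-2.09), Dact1 (-2.08), Tcf21 (-1.99), Senp7 (-1.73) and Zfp521 (-1.57). All passed limma's test of the difference between the times. One air heart, replicate 2, stood apart from the other air hearts in Fmnl2 at 6.71, a gap that chance gives in about 1 in 20 groups.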

How the results depend on the processing

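Leaving out 1 array at a time gave 109 to 765 probe sets for the difference at 4 h, against 501. The count was 12 with the 14 arrays alone (4153 at an unadjusted p under 0.05, against 4411), 143 with the airway level as a covariate, 321 with the fat level and 122 with the airway level in the 14 arrays alone; the fat level and this last fit were chosen after seeing the data. Fewer residual degrees of freedom come with the 14 arrays by construction; the other causes were not tested. The balance, 34.5% higher, was 58.1% under quantile normalization over all arrays, 59.7% within each route and 46.4% with no filter, which gave 388. The 4 h minus 1 h count stayed within 1.5 times of 138 under its alternatives (98 to 160). With the replicate number as a block the counts were 513 and 160, and the numbers pair no samples. In that fit none of the 51 genes of the text followed through the alternatives changed its call. Of the 43 called genes named, 22 passed whichever array was left out. The call was lost for 16 with the airway level as a covariate, for 9 with the fat level and for 11 with all controls of a route pooled, a fit of 633 calls of which 232 were among the 501; Ddit4 and Agt, not called otherwise with all arrays, passed in that fit. Tst was at 0.0411 and 0.318, against -0.63, under the airway fits, with no call in any; the cause was not tested. Each other gene among the 51 kept its sign in all alternatives that gave a value. Further genes named in the text, among them Fkbp5, Dusp1, Mt1 and Tsc22d3, were not followed.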

Other observations

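Platelet genes lay lower after inhalation relative to injection in all 7 tested, with a median of -1.31 and 0 called. Their summed signal, in log2, was 9.26 to 10.11 in HCN hearts, 8.99 to 10.47 in air hearts, 9.11 to 9.7 in KCN hearts and 8.48 to 8.91 in saline hearts. Saline hearts thus lay below KCN hearts, as they did for airway, fat, macrophage and fibroblast genes. For fibroblast genes the ranges were close, 14.09 to 14.28 in saline hearts and 14.3 to 14.44 in KCN hearts. For ventricular cardiomyocyte genes, among others, saline and KCN hearts overlapped. The 3 tested erythroid genes had negative differences with a median of -1.06, and 9 lymphocyte genes a median of -0.31; none was called.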
